A study of Mus musculus with 7 samples.

Results

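The replication-dependent histone genes were taken as all rows of the table whose symbol places them in one of the Hist1 to Hist4 gene clusters, which gave 28 of 23930 genes. They comprised 6 H1, 7 H2A, 6 H2B, 3 H3 and 6 H4 genes, and RefSeq places 23 of them on mouse chromosome 13, 3 on chromosome 3 and 1 each on chromosomes 11 and 6. They were compared between normocapnia (NC1 to NC3) and hypercapnia (HC1 to HC4) in sorted Pax7-GFP+ mononuclear cells of hind leg muscle, and set beside Hinfp and Npat, which regulate their transcription. All mice carried the inducible Pax7-GFP reporter, received tamoxifen at 12 weeks, spent 4 weeks in normal air or in hypercapnia (10% CO2) and were collected at 16 weeks. The background was read as C57BL/6, as the growth label has it, although the genotype label gives a different C57BL number for each sample. The reporter marks cells in which Pax7 was active when tamoxifen was given, together with their progeny, and by the methods muscle had been injured with cardiotoxin before collection, which the sample labels do not mention. The methods place collection 3 days after the injury, whereas the title of the deposited table carries a time of 40 hours, so the time since injury is uncertain. The labels do not say whether each library came from its own mouse, so that the tests measure the spread between libraries.

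Core histones wrap DNA into nucleosomes, and the H1 linker histones bind where the DNA enters and leaves them. Cells make most of their core and linker histones in S phase from clustered genes without introns, whose mRNAs end in a conserved stem-loop rather than a poly(A) tail. The stem-loop is bound by Slbp, guides the cut made with the U7 snRNP, and leads to rapid decay of the mRNA when DNA synthesis stops. Npat is a coactivator of these genes in the histone locus body and a substrate of cyclin E and Cdk2, and Hinfp binds H4 promoters and works with Npat. Quiescent satellite cells do not replicate their DNA, whereas activated myoblasts do.

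The stem-loop is shown first, since it sets these mRNAs apart from others. It was found in the longest GENCODE transcript (release M21) of 19 of the 28 genes, in 6 forms, of which the commonest was carried by 10 genes. In the following stretches, written as DNA from 5′ to 3′, the stem-loop is in capitals.
Hist1h1c: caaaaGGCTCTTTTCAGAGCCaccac
Hist1h2ac: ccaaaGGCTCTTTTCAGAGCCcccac
Hist1h2bm: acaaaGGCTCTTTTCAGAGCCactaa
Hist1h3a: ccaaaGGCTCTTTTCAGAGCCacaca
Hist1h4i: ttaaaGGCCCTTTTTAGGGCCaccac
Hist2h4: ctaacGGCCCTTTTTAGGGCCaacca
Hist4h4: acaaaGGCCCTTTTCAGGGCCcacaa
In the 7 stretches printed here, the H1, H2A, H2B and H3 genes shared one stem-loop and the H4 genes had another stem. In 14 of the 19 transcripts more than 100 annotated bases followed the stem-loop, so that for these genes GENCODE lists an mRNA longer than the form that ends at the stem-loop. It lists 1 transcript for each of the 28 genes. The panel reads 1 amplicon per gene, and neither its position nor the priming of the cDNA is given in the sources used here. The values therefore do not say which form was counted, and levels are compared between libraries. Where a gene is called abundant, this refers to its RPM, which depends on its amplicon, and not to its mRNA relative to other genes. Also, 22 of the 28 genes shared at least one stretch of 100 bases with another gene, so reads of near-identical copies may have been split between them. The share of such stretches was highest in Hist1h2ab, at 52.4% of its transcript windows, and was 0 in Hist2h4.

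The promoters of the H4 genes are shown because Hinfp acts on them. RefSeq (GRCm38.p6) gave a promoter for 22 of the 28 genes, 5 of them H4 genes. The 150 bases before each start site are printed in the direction of the gene. Capitals mark CGGACG or GGTCCG, 2 short forms of the sites described for Hinfp and H4 promoters, and also ATTTGCAT (octamer), CCAAT and TATAAA, on either strand except for TATAAA.
Hist1h4i, chr13:22041363-22041512, minus strand: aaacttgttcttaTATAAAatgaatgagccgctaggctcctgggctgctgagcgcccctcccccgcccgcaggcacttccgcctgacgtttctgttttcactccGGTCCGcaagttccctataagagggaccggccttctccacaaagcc
Hist1h4j, chr13:21734884-21735033, plus strand: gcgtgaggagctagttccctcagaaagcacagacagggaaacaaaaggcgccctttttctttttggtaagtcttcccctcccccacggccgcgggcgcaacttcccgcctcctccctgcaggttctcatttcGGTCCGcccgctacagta
Hist4h4, chr6:136804432-136804581, minus strand: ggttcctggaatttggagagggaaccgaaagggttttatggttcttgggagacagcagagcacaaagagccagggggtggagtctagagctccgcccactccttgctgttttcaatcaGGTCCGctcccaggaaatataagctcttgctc
Hist1h4a, chr13:23761250-23761399, minus strand: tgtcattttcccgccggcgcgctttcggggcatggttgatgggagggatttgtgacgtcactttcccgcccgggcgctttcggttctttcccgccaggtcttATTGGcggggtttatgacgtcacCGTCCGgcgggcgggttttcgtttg
Hist1h4h, chr13:23530894-23531043, plus strand: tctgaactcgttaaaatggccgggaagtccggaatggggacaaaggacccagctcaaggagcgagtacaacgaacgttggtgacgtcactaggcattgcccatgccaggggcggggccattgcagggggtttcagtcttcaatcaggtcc
Within 250 bases before the start site, CGGACG stood in 1 of the 5 H4 promoters, that of Hist1h4a, and in no other histone promoter, against 5.04% of 27025 mouse promoters. GGTCCG, searched after this count and these sequences had been seen, stood in 3 of the 5 H4 promoters (Hist1h4i, Hist1h4j and Hist4h4) and in 1 of 4 H2B promoters, against 6.82% of all promoters. These motifs do not overlap in any promoter printed here. The search stopped at the start site, so a site across it was not counted, and the Hist1h4h stretch ends in ggtcc. An H2A and an H2B promoter show the octamer, which is bound by Oct-1 (Pou2f1).
Hist1h2ac, chr13:23683960-23684109, minus strand: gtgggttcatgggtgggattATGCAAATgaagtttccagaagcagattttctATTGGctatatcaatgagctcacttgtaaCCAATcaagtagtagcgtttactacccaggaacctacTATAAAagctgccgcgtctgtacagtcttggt
Hist1h2bb, chr13:23746584-23746733, plus strand: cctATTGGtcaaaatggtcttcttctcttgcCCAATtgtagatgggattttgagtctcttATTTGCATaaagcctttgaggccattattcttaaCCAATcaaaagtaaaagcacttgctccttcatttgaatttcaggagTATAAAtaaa
The octamer stood in 4 of 6 H2A and 3 of 4 H2B promoters and in none of the H1, H3 or H4 promoters, against 1.61% of all promoters. CCAAT was found in 18 of 22 histone promoters (34.5% of all promoters) and TATAAA in 12 of 22 (8.12%). A match is a description of the letters and no evidence of binding.

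Libraries held 14527445 to 23388710 reads, and 1 read was worth 0.0428 to 0.0688 RPM (reads scaled to a common library total). A count of 3 reads, taken as the floor, was at most 0.207 RPM. Libraries differed in marker levels. The 10 satellite cell markers summed to 502 to 3202 RPM in normocapnia and 740 to 1317 RPM in hypercapnia, and Pax7 itself was 268 RPM in NC1, 8.25 in NC2 and 4.34 in NC3, against 20.1 to 79.5 in hypercapnia. The 11 macrophage markers summed to 12270 RPM in NC1, 23330 in NC2 and 35010 in NC3, and to 20100 to 25010 RPM in hypercapnia. C1qa was at 0 in NC3 and HC3. No satellite marker was at 0 in any library. Neutrophil markers summed to 64.8 to 214 RPM in normocapnia and 78.0 to 288 RPM in hypercapnia, fibro-adipogenic markers to 1033 to 1750 and 928 to 2211 RPM, and lymphocyte and erythroid markers to at most 3.05 and 15.7 RPM. Of all these markers, 1 macrophage marker, Adgre1, was called higher and none lower by the limma test used for the histone genes. The call of Adgre1 was lost with median-of-ratios scaling and without NC1, NC3, HC1 or HC2. In bulk RNA, fewer cells of a type and less RNA per cell cannot be told apart, and the part of cell makeup in the results was not tested.

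Of the 28 histone genes, 15 averaged 10 RPM or more over the 7 libraries, the lowest being Hist1h3a at 22.5 RPM, and the other 13 had means of at most 3.68 RPM. A gene was called at an unadjusted limma p under 0.05 and a fold change above 1.5, the thresholds of the study. Hist1h3a and Hist1h4i were called higher in hypercapnia, and none was called lower. Among all genes 1.43% were called higher and 1.14% lower, and among the 8229 genes averaging 10 RPM or more 3.07% and 2.47%. The calls were 7.14% of the 28 genes and 13.3% of the 15, shares that rest on 2 genes. None of the 28 passed after Benjamini-Hochberg adjustment over all genes (lowest adjusted p = 0.915, limma). With edgeR, 3 of the 22 members that passed its filter were called higher and 0 lower, against 2.21% and 3.82% of 13293 genes, and with DESeq2 3 of 23 and 0, against 2.49% and 3.76% of 20858 genes. DESeq2 gave no p for the other 5 members, 3 of which were among the 15 abundant ones. Of the 28, 2 had an unadjusted limma p under 0.05, both of them higher, where 4.66% of all genes and 9.36% of those at 10 RPM or more had one in either direction. The log2 fold change was above 0 in 25 of 28 genes with a median of 0.46 (0.02 over all genes, and 0.22 to 0.80 for the 28 when 1 library was left out), and in 14 of the 15 more abundant genes with a median of 1.72, where all genes at 10 RPM or more had a median of 0.13. The median of the 15 was 0.92 without NC3 and 2.94 without NC1, the lowest and highest when 1 library was left out. With edgeR and DESeq2 on whole reads, the median of the 15 was 0.92 and 0.89.

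**Figure D1:**
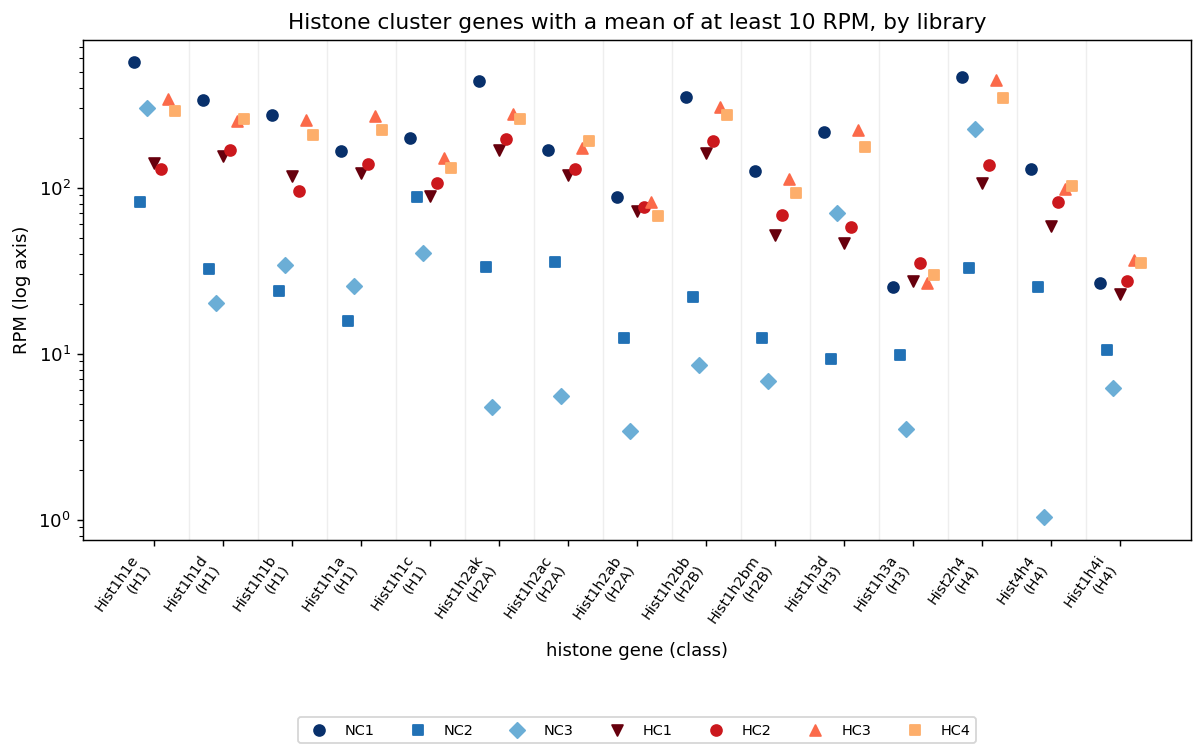
RPM (log axis) of the 15 histone genes averaging 10 RPM or more, with 1 point per library, blue for normocapnia and red to orange for hypercapnia. NC1 lies above NC2 and NC3 for all 15 genes, and NC2 lies under the 4 hypercapnia libraries for all 15. The share of all genes with these orders was not counted.

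The 3 normocapnia libraries lay far apart and the 4 hypercapnia libraries closer together. The summed level of the 15 genes was 3586 RPM in NC1, 445 in NC2 and 757 in NC3, whereas HC1 to HC4 had 1462, 1639, 3056 and 2683 RPM. NC1 was above NC2 and NC3 for 15 of 15 genes, by 2.28 to 23.2 times over NC2. It was above every hypercapnia library for 10 of them. NC2 was under every hypercapnia library for 15 of 15 genes and NC3 for 12 of 15. The share of all genes with these orders was not counted, so the orders may not be particular to histone genes. The SD of log2(RPM + 1) was larger in normocapnia for 15 of 15 genes, at 0.99 to 3.15 against 0.12 to 1.12 in hypercapnia.

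H3 and H4 genes gave both calls. Hist1h3a, which encodes H3.1, was at 25.2, 9.88 and 3.51 RPM in NC1 to NC3 and at 27.4, 35.3, 26.6 and 29.7 RPM in HC1 to HC4. It was the only one of the 15 genes whose groups did not overlap, which 4.96% of genes at 10 RPM or more did in this direction and 4.67% in the other. Its log2 fold change was 1.49 ± 0.59 (SE, adjusted p = 0.915, limma), with an exact permutation p of 0.0286 (two-sided), the smallest that 35 divisions of the libraries allow. Hist1h4i was at 26.8, 10.5 and 6.20 RPM in normocapnia and at 22.9, 27.5, 36.5 and 35.1 RPM in hypercapnia. NC1 lay within the hypercapnia range. The log2 fold change was 1.23 ± 0.49 (SE, adjusted p = 0.915, limma), with an exact permutation p of 0.0571. Both calls were lost when any single library other than NC1 was left out, and 32.2% and 15.1% of the transcript windows of Hist1h3a and Hist1h4i also occur in other genes.

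The other abundant H3 and H4 genes were not called. Hist4h4 was at 130, 25.3 and 1.03 RPM in NC1 to NC3 and at 59.1, 81.6, 97.7 and 103 RPM in HC1 to HC4, a log2 fold change of 2.14 ± 1.41 (SE). NC3 and NC1 thus differed by 126 times within normocapnia. Hist2h4 was at 464, 32.8 and 226 RPM and at 107, 138, 447 and 347 RPM (log2 fold change 0.52 ± 1.06). Hist1h3d was at 216, 9.32 and 70.1 RPM and at 46.1, 58.1, 223 and 176 RPM (0.92 ± 1.20). In both genes HC1 and HC2 were low, HC3 and HC4 high, and the groups overlapped. Hist1h3f, the third H3 gene, had at most 1.76 RPM in any library.

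The 3 abundant H2A and the 2 abundant H2B genes were low in NC2 and NC3 and had a wide spread in normocapnia. Hist1h2ak was at 440, 33.4 and 4.75 RPM across NC1, NC2 and NC3 and at 169, 197, 278 and 259 RPM across the hypercapnia libraries. Hist1h2ac was at 169, 35.7 and 5.58 RPM and at 119, 129, 173 and 192 RPM. Hist1h2ab was at 87.7, 12.4 and 3.44 RPM and at 72.8, 76.5, 82.5 and 67.6 RPM. For each of them NC1 was within or above the hypercapnia range while NC2 and NC3 were below it. The log2 fold changes were 2.32 ± 1.46, 2.14 ± 1.09 and 2.12 ± 1.01 (SE). Hist1h2bb was at 351, 22.0 and 8.54 RPM and at 162, 190, 307 and 273 RPM (2.41 ± 1.27). Hist1h2bm was at 126, 12.5 and 6.82 RPM and at 51.9, 68.7, 112 and 93.2 RPM (1.74 ± 1.02). None of the 5 was called, and adjusted p was 0.915 for each (limma).

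Among the abundant H1 genes, Hist1h1a, Hist1h1b, Hist1h1c and Hist1h1d were lower in NC2 and NC3 than in every hypercapnia library, and Hist1h1e was not. Hist1h1d was at 338, 32.3 and 20.2 RPM across NC1, NC2 and NC3 and at 155, 168, 252 and 259 RPM across the hypercapnia libraries, a log2 fold change of 1.72 ± 1.01 (SE). Hist1h1b was at 274, 23.9 and 34 RPM and at 118, 95.2, 254 and 206 RPM (1.33 ± 0.94). Hist1h1e was at 569, 82.1 and 301 RPM and at 140, 130, 341 and 289 RPM (-0.23 ± 0.76). It alone of the 15 had a negative fold change, and its groups overlapped. Hist1h1a and Hist1h1c had log2 fold changes of 2.10 ± 0.87 and 0.38 ± 0.56, and no H1 gene was called.

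Hist1h1e, Hist1h3d and Hist2h4 stood out in NC3, which was 3.66, 7.52 and 6.88 times NC2. For 10 of the 15 genes NC3 was below NC2. These 3 genes and Hist1h1b also had a mean of HC3 and HC4 over 2 times that of HC1 and HC2, with 3.83 for Hist1h3d the highest of the 15 and 0.897 for Hist1h3a the lowest. This set was noticed in the values and has no test. Among the lists, Pecam1, an endothelial adhesion molecule, split the hypercapnia libraries in the same way, at 28.2 and 26.2 RPM in HC1 and HC2 and 317 and 229 RPM in HC3 and HC4, and so did Rrm2, a subunit of ribonucleotide reductase, at 156 and 133 RPM and 507 and 424 RPM. Pax7 was at 21.5 and 20.1 RPM in HC1 and HC2 and 79.5 and 59.6 RPM in HC3 and HC4, while Adgre1, a macrophage receptor, went the other way, at 392 and 429 RPM and 151 and 184 RPM. The mean of HC3 and HC4 was over 2 times that of HC1 and HC2 for 6 of 10 satellite cell, 5 of 5 endothelial, 4 of 5 neutrophil and 2 of 5 fibro-adipogenic markers, for 2 of 22 S phase genes and for 0 of 11 macrophage markers. The 5 endothelial markers summed to 42.9 to 476 RPM in hypercapnia and 80.0 to 207 RPM in normocapnia, and none was at 0. The part of these cell types in the split was not tested.

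The remaining 13 genes had low levels, although 7 of them averaged 1 RPM or more. Of the 13, 4 were at 0 RPM in at least 1 library, and none was called. Of the Hist2 and Hist3 clusters, Hist2h2be was at 3.26, 3.16 and 3.17 RPM in NC1 to NC3 and at 3.13, 2.76, 4.25 and 6.03 RPM in HC1 to HC4. Hist2h2ab was at 4.77, 3.16 and 2.48 RPM and at 2.95, 4.12, 4.19 and 4.06 RPM. NC1 was 1.03 times NC2 for Hist2h2be and 1.51 times for Hist2h2ab, where the summed level of the 15 abundant genes differed by 8.05 times. Hist3h2bb-ps, named as a pseudogene, was at 2.10, 0.77 and 1.86 RPM and at 1.58, 1.05, 1.87 and 8.80 RPM, and Hist1h2bh at 2.45, 0.342 and 2.27 RPM and at 0.556, 0.754, 1.44 and 4.54 RPM. Of the 13 genes, 10 were highest in HC4, where they summed to 46.9 RPM against 11.5 to 21.1 RPM in the other 6 libraries. HC4 also had the most genes at 1 RPM or more, 13932 against 10619 to 12462 in the other libraries.

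Each library was left out in turn, and each omission changed the number of calls, which rose only without NC1. Without NC1, 11 of the 15 abundant genes (73.3%) were called higher, against 11.9% of genes at 10 RPM or more, and so were 22 of 22 S phase genes. The log2 fold change of Hist1h2bb rose from 2.41 to 3.94 ± 0.48 (SE), that of Hist1h2ak from 2.32 to 3.98 ± 0.78, that of Hist1h1d from 1.72 to 2.94 ± 0.33 and that of Hist4h4 from 2.14 to 3.53 ± 1.10. Without NC3, the library lowest for these 4 genes, they were 1.33, 0.85, 0.94 and 0.53, none of them called. Hist1h1c, Hist1h1e, Hist1h3d and Hist2h4 were not called without NC1. After adjustment over all genes none passed in the fit without NC1 (lowest adjusted p = 0.106, limma). Leaving out any one of the other 6 libraries gave 0 calls.

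**Figure D2:**
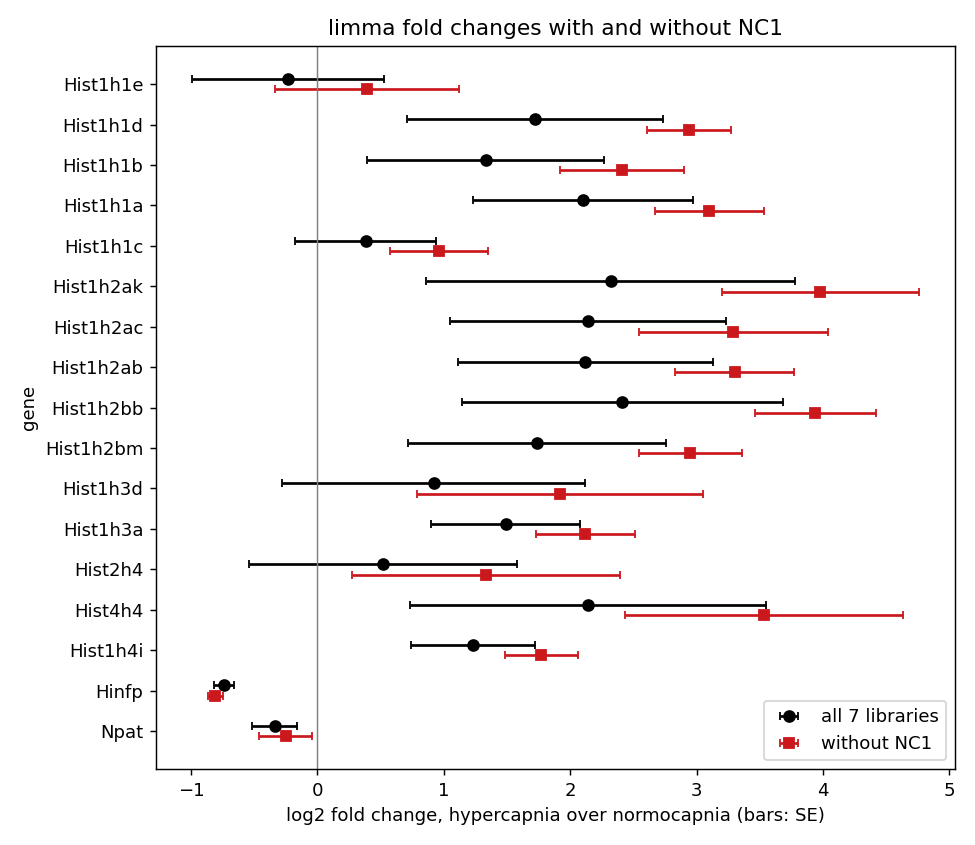
limma log2 fold changes (hypercapnia over normocapnia) with their SE for the 15 abundant histone genes, Hinfp and Npat, with all 7 libraries (black circles) and without NC1 (red squares). Without NC1, 11 of the 15 histone genes were called higher, while Hinfp went from -0.74 to -0.81 and Npat from -0.34 to -0.25.

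Hinfp was lower in hypercapnia. It was at 15.7, 18.3 and 18.7 RPM in NC1 to NC3 and at 9.20, 10.3, 10.4 and 10.4 RPM in HC1 to HC4. The groups did not overlap and each spread over a narrow range. On the log2(RPM + 1) scale the means were 4.21 and 3.47, and the log2 fold change was -0.74 ± 0.08 (SE), or 1.67-fold lower. Hinfp was thus called, with an exact permutation p of 0.0286 (two-sided), the smallest the design allows, and did not pass adjustment over all genes (adjusted p = 0.351, limma). Within normocapnia, NC1 had the highest summed histone level and the lowest Hinfp level. Within hypercapnia, HC1 had the lowest summed histone level and also the lowest Hinfp level. A relation between the levels was not tested. Npat was at 25.7, 22.1 and 20.4 RPM in normocapnia and at 18.7, 15.1, 23.5 and 14.7 RPM in hypercapnia. The groups overlapped, and its log2 fold change of -0.34 ± 0.18 (SE, adjusted p = 0.915, limma) was not called.

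**Figure D3:**
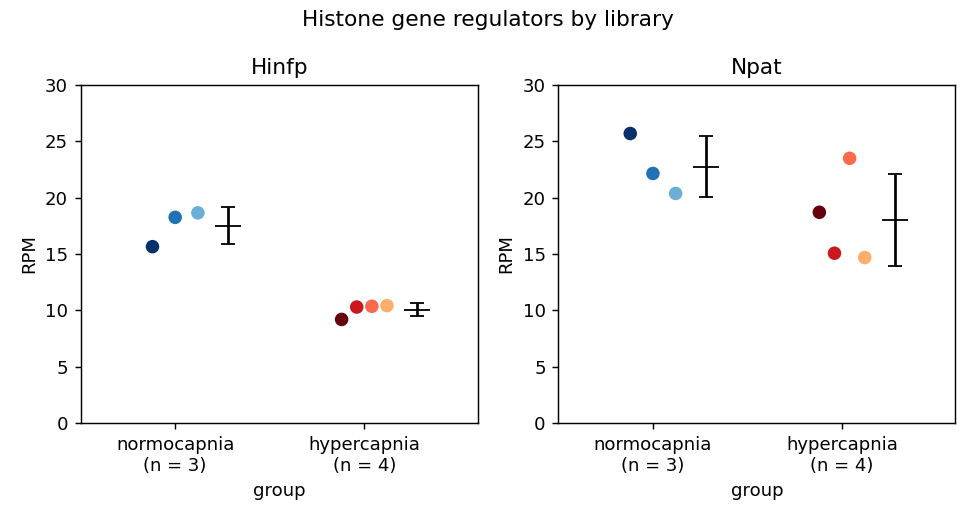
RPM of Hinfp and Npat in each library (points), with the group mean and SD (bars, n = 3 normocapnia and n = 4 hypercapnia). Hinfp lies between 15.7 and 18.7 RPM in normocapnia and between 9.20 and 10.4 RPM in hypercapnia, whereas the groups overlap for Npat.

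Of the 9 genes listed for histone gene transcription, Hinfp was called lower and Gon4l, a nuclear protein, was called higher (0.77 ± 0.26 SE, adjusted p = 0.915, limma). The call of Gon4l was lost with median-of-ratios scaling, quantile normalization, a pseudocount of 5 RPM, edgeR and DESeq2, and without NC1, NC3, HC1, HC2 or HC4. Without NC1 3 other genes of the list, Coil, Ccne1 and Ccne2, were called higher, where 11.9% of genes at 10 RPM or more were. Without NC3 Pou2f1 was called lower beside Hinfp, where 381 of 23930 genes were called lower. Ccne1, a cyclin E gene, was at 26.9, 3.04 and 1.58 RPM in NC1 to NC3 and 14.8 to 21.2 RPM in hypercapnia. Ccne2 was at 20.8, 1.67 and 4.68 RPM and at 10.8 to 20.2 RPM. Cdk2, the kinase that phosphorylates Npat, was at 154, 60.0 and 73.0 RPM in NC1 to NC3 and 78.6 to 101 RPM in hypercapnia. Pou2f1 was at 53.9, 44.2 and 29.0 RPM in normocapnia and at 27.0 to 39.4 RPM in hypercapnia (-0.36 ± 0.24). Neither was called with all 7 libraries.

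Of 14 measured genes of histone mRNA 3′ processing, 1 was called higher and 0 lower (limma), and 2 had an unadjusted p under 0.05. The call was Lsm10, a subunit of the U7 snRNP, at 34.2, 53.2 and 25.3 RPM in normocapnia and 52.4 to 84.0 RPM in hypercapnia (0.88 ± 0.29 SE), and was lost with median-of-ratios scaling, edgeR and DESeq2, and without NC1, NC3, HC1 or HC2. The most abundant of the list were Snrpb, Sympk and Srrt, none of them called. Slbp itself was at 85.7, 68.2 and 67.5 RPM in NC1 to NC3 and at 96.8, 79.2, 83.4 and 88.3 RPM in HC1 to HC4, a range of 67.5 to 96.8 RPM over all libraries. Of 9 genes of histone mRNA decay, Dcp2, the decapping enzyme, was called higher (0.71 ± 0.23 SE, adjusted p = 0.915, limma). Its call was lost with median-of-ratios scaling, with DESeq2, with edgeR when no filter was used, with the replicate number as a block, and without any single library other than NC1 or HC2. Upf1, Eri1 and Zcchc6, the most abundant of this list, were not called.

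Replacement histones are also made outside S phase. None of their 7 measured genes was called by limma, none had an unadjusted p under 0.05, and the median log2 fold change was -0.03. H2afy (macroH2A) was at 212 to 238 RPM in normocapnia and 192 to 265 RPM in hypercapnia, while H1f0 was at 234, 42.2 and 95.3 RPM in NC1 to NC3 and 53.5 to 112 RPM in hypercapnia. H2afx, the third by RPM, lay between 12.3 and 66.9 RPM over the 7 libraries. Of 13 histone chaperone genes none was called, with a median of 0.48. Without NC1, 6 of the 13 chaperone genes and 1 of the 7 replacement histone genes were called higher, where 11.9% of genes at 10 RPM or more were. The most abundant were Rbbp4, Supt16 and Atrx.

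The S phase genes, like the abundant histone genes, were high in NC1 and low in NC2 and NC3. None of 22 was called by limma or had an unadjusted p under 0.05. With edgeR 3 of 22 and with DESeq2 3 of the 20 given a p were called higher, beside the shares of all genes given above for these tools, and limma under other settings called 0 to 4 with all 7 libraries. All 22 had a log2 fold change above 0, with a median of 1.13. NC2 and NC3 were both under every hypercapnia library for 22 of 22 genes, and NC1 was above every hypercapnia library for 16. Shares of all genes were not counted for these orders. Rrm2 was at 536, 21.3 and 49.7 RPM in NC1 to NC3, Ccna2 (cyclin A2) at 379, 11.2 and 41.1 RPM, and Mcm7, a subunit of the replicative helicase, at 305, 40.4 and 8.67 RPM. In hypercapnia they ran from 133 to 507, from 102 to 337 and from 158 to 269 RPM. The median log2(RPM + 1) of the 15 histone genes minus that of the S phase genes amounted to 1.66, 1.0 and -0.47 for the normocapnia libraries and 1.35, 1.33, 2.14 and 2.18 for HC1 to HC4. These ranges overlapped, with NC3 the lowest. The median log2(RPM + 1) of the satellite cell markers was also highest in NC1 (7.92) and lowest in NC2 (3.47) and NC3 (2.67), and their part in these levels was not tested.

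**Figure D4:**
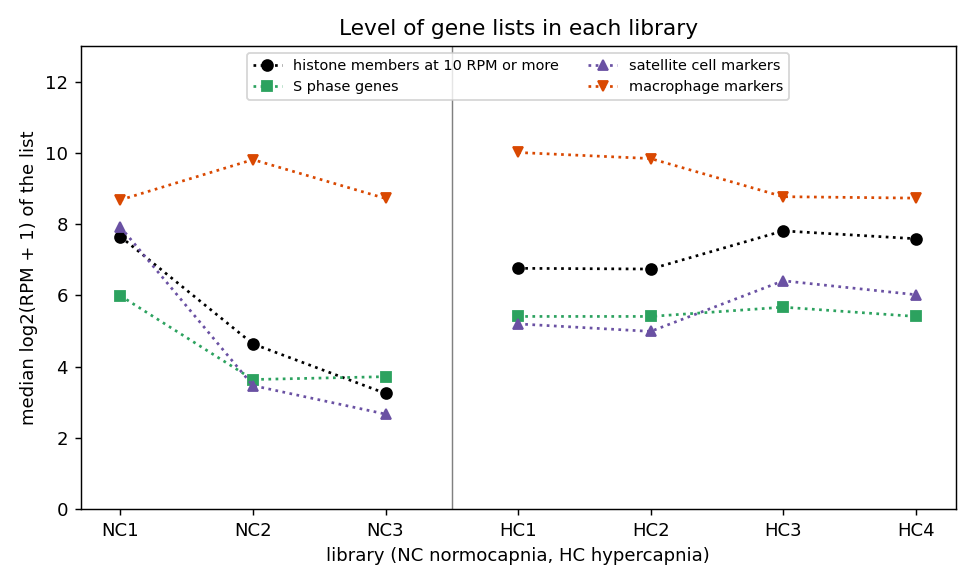
Median log2(RPM + 1) of the 15 abundant histone genes (circles), 22 S phase genes (squares), 10 satellite cell markers (upward triangles) and 11 macrophage markers (downward triangles) in each library, with dotted lines only to guide the eye within a group. Histone medians are 7.65, 4.64 and 3.25 in NC1 to NC3 and 6.74 to 7.81 in hypercapnia, the highest being HC3, whereas S phase and satellite medians are highest in NC1.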

How the data were processed

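RNA of sorted Pax7-GFP+ cells was measured with a mouse AmpliSeq transcriptome panel in 3 normocapnia and 4 hypercapnia libraries. The authors deposited RPM, that is reads per amplicon scaled to a common library total, for 23930 genes, and the submitters name the Transcriptome Analysis Console. For the aligner and the genome build the sources used here give no name. Whole reads were recovered for 100% of values (tolerance 0.05 reads). Groups came from the sample labels. limma 3.58.1 (R 4.3.3) was fitted to log2(RPM + 1) of every gene, unfiltered, with Benjamini-Hochberg adjustment. Fold changes on this scale understate the change of low genes. The exact permutation test ran over 35 divisions of the libraries. Alternatives were pseudocounts of 0.1 and 5 RPM, a mean of at least 1 RPM, quantile normalization, median-of-ratios scaling, limma with trend, edgeR 4.0.16, DESeq2 1.42.0, the replicate number as a block and leaving out each library. The limma, edgeR and DESeq2 fits were tested on simulated data. The members, lists and tests were chosen with earlier results of these data known. The second H4 motif, GGTCCG, was added after seeing the data. Floors cover counting error only.

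Named genes are Hinfp and Npat, the 3 most abundant genes of each histone class, all called members, the 2 higher and 2 lower with the smallest p among members with a mean of at least 1 RPM, members of the Hist2 to Hist4 clusters with that mean, and, of each list of histone regulation, chaperones, replacement histones and S phase, the 3 most abundant and those called. Hist1h1a, Hist1h1c, Slbp, Coil, Ccne1, Ccne2, Pax7, C1qa, Adgre1 and Pecam1, and the set that was high in NC3, were chosen after their values were seen. Stem-loops were searched with a consensus pattern in GENCODE M21 transcripts, and motifs in RefSeq promoters (GRCm38.p6), to which genes were matched through older symbols. Markers of neutrophils, fibro-adipogenic cells, lymphocytes and erythroid cells were summed as well.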

Additional observations from a re-analysis of the deposited data

Results flagged for a closer look

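Within the 4 hypercapnia libraries, the gap of an extreme library to its nearest neighbour was compared with the whole range for 20 named genes, and 3 exceeded the 95% critical value of Dixon's ratio, where chance gives about 1 in 20. Hinfp was at 9.20 RPM in HC1, below the other hypercapnia libraries, and Hist2h2ab at 2.95 RPM in HC1. Hist3h2bb-ps was at 8.80 RPM in HC4, above the others, and without HC4 its log2 fold change was -0.01.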

How the results depend on the processing

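The number of histone genes called higher, 2 of 28, was 1 with a pseudocount of 0.1 RPM, 4 with a mean of at least 1 RPM and 0 with the replicate number as a block, and 0 to 11 when 1 library was left out, with 11 without NC1 and 0 without any other. It was 2 or 3 under the other alternatives, and none was called lower under any of them. Same-numbered libraries were correlated in their deviations at -0.35, 0.50 and -0.04 over 3 numbers, so that they share only a number and the block is no paired analysis. No normocapnia library has the number of HC4, so the block also took HC4 out of the comparison. Hinfp was lower under every alternative (log2 fold change -0.58 to -1.0), and with a pseudocount of 5 RPM its -0.58 missed the fold threshold. Its adjusted p ran from 0.0676 (without NC1) to 0.94. Npat was called under none. The median log2 fold change of all 28 genes, 0.46, stayed above 0 throughout and was 0.25 with quantile normalization, 0.77 with DESeq2, 0.73 and 0.77 with edgeR with and without its filter, 0.22 without HC4 and with the block, 0.29 without NC2, 0.80 without NC1 and 1.08 over the 22 genes averaging 1 RPM or more. That of the 15 abundant genes was 1.72, 0.88 with edgeR without a filter, 0.92 without NC3 and 2.94 without NC1. The sign turned for Hist1h2bh at 0.03 and 0.01 (pseudocounts of 0.1 and 5 RPM), Hist2h2ab and Hist2h2be at -0.26 and -0.13 (quantile normalization), Hist2h4 at -0.03 (DESeq2) and Hist3h2bb-ps at -0.01 (block). Leaving out 1 library gave -1.0 to 0.39 for Hist1h1e, -0.45 to 0.23 for Hist1h2bh, -0.28 to 1.92 for Hist1h3d, -0.03 to 0.34 for Hist2h2ab, -0.56 to 1.33 for Hist2h4 and -0.01 to 0.74 for Hist3h2bb-ps. The cause was not tested. Over genes at 1 RPM or more the median of all log2 fold changes was 0.16 in RPM and 0.04 after median-of-ratios scaling, which left 14 of the 15 abundant histone genes above 0. S phase genes called higher numbered 0 of 22, and 22 without NC1. They were 4 over genes averaging 1 RPM or more, 3 with median-of-ratios scaling, quantile normalization, edgeR and DESeq2, 2 with limma with trend, 1 with a pseudocount of 5 RPM and 0 otherwise.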
